A study of Mus musculus with 8 samples.

Results

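The heat shock and ER stress chaperones are 34 genes whose products fold proteins or signal that folding has failed. All probes annotated to them were followed in the hypothalamus of mice with and without an intact Bgn gene. Bgn encodes biglycan, a small proteoglycan of the extracellular matrix. The genes were grouped by role into 14 cytosolic (and mitochondrial) heat shock genes, 15 genes of the endoplasmic reticulum (ER) and its unfolded protein response, and 5 genes of the ATF4 pathway. Of the 34 genes, 30 had an annotated probe, 40 probes in all, among 25697 probes and 16593 named genes on the array. Hspa1b, Hsp90ab1, Dnajb11 and Sdf2l1 had no annotated probe, so no value is given for them. A probe was tested where it was above background (detection p under 0.05) on at least 4 of the 8 arrays, and 34 probes of 27 members met that filter, each of them on all 8 arrays. Trib3, Canx and Manf had a single probe each, above background on 0 arrays, and so cannot be described.

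Both groups were male mice aged 13 weeks, on a C57BL/6 background per the labels. The first group carries a disrupted Bgn gene (Bgn_KO, 4 arrays) and the second is wild type (WT, 4 arrays). Each array holds total RNA of the frozen hypothalamus of a labelled replicate, and the design text gives 4 mice per genotype. The labels name no promoter, Cre line or agent, and the whole tissue was measured, so fewer cells of a type and less RNA per cell cannot be told apart.

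Cytosolic chaperones of the Hsp70 and Hsp90 families hold unfolded proteins with the help of DnaJ co-chaperones and small heat shock proteins, and heat shock factor 1 switches their genes on through repeated GAA units, the heat shock element. In the ER, the chaperone BiP (Hspa5) works with Hsp90b1, lectin chaperones and protein disulfide isomerases. When unfolded proteins accumulate there, ATF6 and the spliced form of XBP1 bind the ER stress response element, while the kinase PERK raises translation of ATF4. ATF4 in turn activates genes of amino acid supply and of cell death through the C/EBP-ATF response element. Hypothalamic neurons secrete large amounts of peptide hormones, which are folded in the ER.

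The promoter stretches below are shown because of a pattern seen over the arrays. By their brightest probes, the tested ER members that carry the ER stress response element were all highest on the same array. Some members without it were also highest there. RefSeq windows of GRCm38.p6, from 250 bases before to 50 after each start, were held for 28 of the 34 members. The sequences are written 5′ to 3′ in the direction of the gene, with 12 bases on each side of a match, and capitals mark the fixed letters of the motif. The motif searched was CCAAT and CCACG with any 9 bases between them, on both strands. It was found in the windows of 6 of 13 ER members (Hspa5, Hsp90b1, Calr, Pdia6, Creld2 and Canx), of 0 of 10 heat shock members and of 0 of 5 ATF4 members, while 0.12% of all 32544 windows held it. The stretches of the tested members lie at chr2:34772013-34772055 on the plus strand for Hspa5, chr10:86705521-86705668 on the minus strand for Hsp90b1 (with 2 matches), chr8:84847063-84847105 on the minus strand for Calr, chr12:17266479-17266521 on the plus strand for Pdia6 and chr15:88819508-88819550 on the plus strand for Creld2.
Hspa5: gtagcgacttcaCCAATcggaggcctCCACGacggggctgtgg
Hsp90b1: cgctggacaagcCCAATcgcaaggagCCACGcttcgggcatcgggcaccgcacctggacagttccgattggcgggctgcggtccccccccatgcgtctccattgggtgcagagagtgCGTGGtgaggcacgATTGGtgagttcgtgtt
Calr: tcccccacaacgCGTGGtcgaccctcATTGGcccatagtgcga
Pdia6: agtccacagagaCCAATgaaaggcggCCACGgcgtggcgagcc
Creld2: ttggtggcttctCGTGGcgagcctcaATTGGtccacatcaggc

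The heat shock element, searched as GAA, TTC and GAA with any 2 bases between neighbours, on both strands, was found for 3 of 10 heat shock members with a window (Hsph1, Hspe1 and Hspd1) and in 0.608% of all windows. Hspe1 and Hspd1, which encode the mitochondrial co-chaperonin Hsp10 and chaperonin Hsp60, start back to back and share a single stretch with 2 overlapping matches, chr1:55088047-55088088, read on the plus strand for Hspe1. It is shown because both genes were highest on the same array, the one labelled WT replicate 1. Hsph1, which also holds the element, was highest on Bgn_KO replicate 4 (12.90, against 12.89 on the array labelled WT replicate 1). Hspa1a, whose window held no match, was highest on the array labelled WT replicate 1.
Hspe1: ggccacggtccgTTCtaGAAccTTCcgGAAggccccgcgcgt
The C/EBP-ATF response element, searched as TGATGNAA on both strands, was found for 3 of 5 ATF4 members (Asns, Chac1 and Trib3), for 1 ER member (Herpud1) and in 3.91% of all windows. The stretch of Chac1, chr2:119351037-119351068 on the plus strand, and that of Asns, chr6:7693213-7693244 on the minus strand, are given as the stretches of the tested ATF4 members that hold this element.
Chac1: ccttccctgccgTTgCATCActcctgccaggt
Asns: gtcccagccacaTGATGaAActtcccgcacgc
A match is a run of letters, not a site shown to be bound, and a window without a match says only that these letters are not in it.

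Per array, 13820 to 14502 probes exceeded background, and tested probes correlated between arrays with r of 0.976 to 0.990. Of 16 hypothalamic markers 12 were tested and Crh, Sim1, Otp and Rax were not above background often enough. The array labelled WT replicate 1 was at the level of the Bgn_KO arrays for Bgn itself. The Bgn probe was at 8.93, 9.0, 8.97 and 8.78 on the Bgn_KO arrays and at 8.85, 10.43, 10.12 and 9.51 on the WT arrays in order of replicate, all in normalized log2 signal, the scale used throughout. Its difference did not pass (-0.81, SE 0.29, limma adjusted p = 0.389). The sources used here do not say which stretch of Bgn was disrupted, so this probe may not check the labels. Meningeal fibroblast markers (7 of 10 tested) averaged 9.50, 8.71, 8.41 and 9.93 on the Bgn_KO arrays. On the WT arrays they averaged 8.70, 10.36, 9.83 and 9.01, and their part in the Bgn values was not tested. Bgn_KO replicate 4 and WT replicate 4 also stood apart: fast skeletal muscle markers (5 of 12 tested) averaged 7.16 to 7.90 in Bgn_KO and up to 7.66 in the first 3 WT replicates but 12.93 on WT replicate 4, and cortical neuron markers (4 of 10 tested) averaged 9.13 on Bgn_KO replicate 4, 6.22 to 7.09 on the other Bgn_KO arrays and 6.52 to 7.15 on WT arrays. Pituitary markers (2 of 8 tested) averaged 8.51 on Bgn_KO replicate 1 and 8.30 on WT replicate 2, and 4.54 to 5.70 on the other arrays. The part of these tissues in the values of the members was not tested. Directions below rest on the labels as deposited.

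No member differed between Bgn_KO and WT past the threshold of the test used, limma's moderated test with Benjamini-Hochberg adjustment over all 14190 tested probes. The count was 0 of 34 member probes, with limma adjusted p between 0.422 and 0.991, against a background of 0.507% of all tested probes past 0.05 (72 probes). A single member probe, that of Hspa5, had an unadjusted p under 0.05 (0.0296), where 10.2% of all tested probes did. The log2 differences, Bgn_KO minus WT, ran from -0.50 (Dnaja1) to 0.13 (Hspa8 and Ddit3). Of the member probes 10 were positive and 24 negative, and of all tested probes 7491 were positive and 6699 negative. The median was -0.06 for the member probes, beside 0.01 over all tested probes. With each array scaled to its median instead, the median over all tested probes was itself -0.052. The 95% interval of the difference lay within 1 log2 unit, a 2-fold change, for 33 of 34 probes, Dnaja1 being the exception, and within 0.5 for 24. The median spread within groups (pooled SD) was 0.18 for the member probes and 0.19 for all tested probes.

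**Figure D1:**
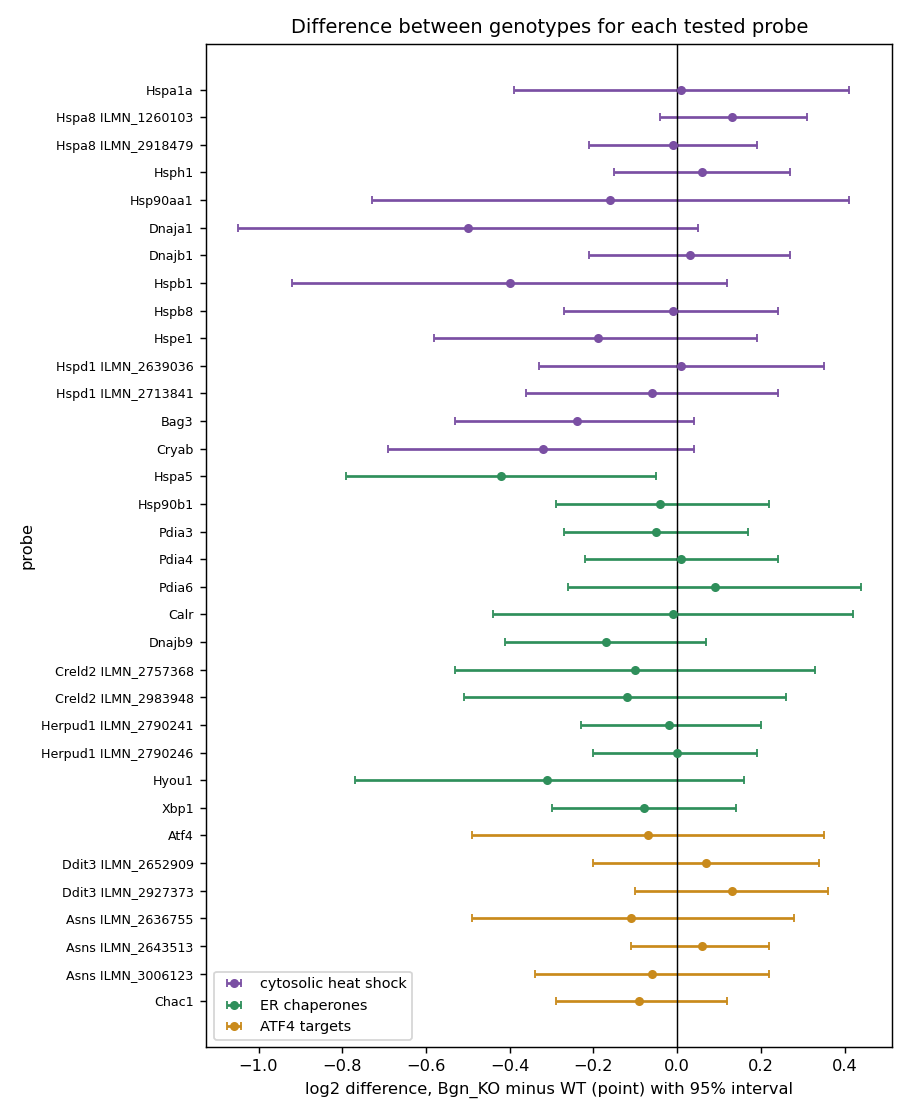
Log2 difference between genotypes, Bgn_KO minus WT, for each of the 34 tested member probes (points) with its 95% interval (bars), coloured by group. The interval of Hspa5 alone leaves out 0, at -0.79 to -0.05, and no probe passed 0.05 after adjustment.

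The ER chaperones had 11 tested genes, of which 2 had positive and 9 negative differences (median -0.05) and 0 passed the test. Hspa5, which encodes the Hsp70 chaperone BiP that also holds the ER stress sensors inactive, had 6.24, 6.56, 6.57 and 6.08 on the Bgn_KO arrays and 7.12, 6.45, 6.77 and 6.81 on the WT arrays in order of replicate. The groups overlapped: WT replicate 2 lay below Bgn_KO replicates 2 and 3, while the array labelled WT replicate 1 was highest. Its difference was -0.42 (SE 0.16, limma adjusted p = 0.422), and -0.31 without the array labelled WT replicate 1 (limma adjusted p = 0.486). The Hspa5 probe was dim, brighter than only 24.4% of all tested probes. Its difference ran from -0.54 to -0.16 over the 17 alternatives. Hyou1, an ER relative of Hsp70 that acts as a nucleotide exchange factor for BiP, had 6.09, 6.39, 6.90 and 6.35 on the Bgn_KO arrays and 7.02, 6.49, 7.04 and 6.41 on the WT arrays. Both groups spanned much the same range, with a difference of -0.31 (SE 0.21, limma adjusted p = 0.653). The Hyou1 probe was similarly dim, brighter than 24.5% of all tested probes. Dnajb9, a DnaJ protein of the ER that binds BiP, had 11.49, 11.29, 11.37 and 11.33 on the Bgn_KO arrays and 11.59, 11.30, 11.56 and 11.72 on the WT arrays. WT replicate 2 lay among the Bgn_KO arrays, and the difference was -0.17 (SE 0.11, limma adjusted p = 0.626).

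Calr, the calcium-binding lectin chaperone calreticulin, had 9.68, 9.64, 9.54 and 9.40 on the Bgn_KO arrays and 10.20, 9.51, 9.26 and 9.34 on the WT arrays. The array labelled WT replicate 1 was above all others, and the remaining WT arrays lay at or below the middle of the Bgn_KO arrays. The difference was -0.01 (SE 0.19, limma adjusted p = 0.989), and 0.19 without the array labelled WT replicate 1 (limma adjusted p = 0.520). Pdia6, a protein disulfide isomerase that also acts on the stress sensors, had 9.56, 9.22, 9.53 and 9.36 on the Bgn_KO arrays and 9.78, 9.14, 9.17 and 9.24 on the WT arrays. Again only the array labelled WT replicate 1 was above the Bgn_KO arrays, and the difference of 0.09 (SE 0.16) was 0.24 without it (limma adjusted p = 0.896 with it and 0.434 without it). Hsp90b1, the ER member of the Hsp90 family, had 12.88, 12.93, 12.82 and 12.81 on the Bgn_KO arrays and 13.21, 12.87, 12.72 and 12.79 on the WT arrays. The array labelled WT replicate 1 was at the top and the other WT arrays lay within or below the Bgn_KO range, and its difference was -0.04 (SE 0.11, limma adjusted p = 0.947).

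Creld2, a secreted ER stress protein with disulfide isomerase activity, had 2 probes that gave -0.10 and -0.12, the brighter with 9.48, 9.20, 9.45 and 8.86 on the Bgn_KO arrays and 9.68, 9.50, 9.15 and 9.16 on the WT arrays. Bgn_KO replicate 4 was the lowest of its arrays. The thiol oxidoreductases Pdia3 and Pdia4 differed by -0.05 and 0.01. Herpud1, a membrane protein of ER-associated degradation, differed by -0.02 and by less than 0.01 with its other probe. Xbp1, the transcription factor whose spliced form drives ER chaperone genes, had 12.49, 12.46, 12.58 and 12.23 on the Bgn_KO arrays and 12.52, 12.62, 12.52 and 12.43 on the WT arrays (difference -0.08, SE 0.10, limma adjusted p = 0.836). Its probe gives no account of splicing.

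The cytosolic heat shock group had 12 tested genes, 4 with positive and 8 with negative differences (median -0.11), and 0 passed the test. Without the array labelled WT replicate 1 that median was -0.01. Hspa8, the constitutive Hsp70 of the cytosol that also strips clathrin from vesicles, was among the brightest probes on the array. Its probe ILMN_1260103 had 15.04, 15.10, 14.99 and 14.93 on the Bgn_KO arrays and 14.89, 14.87, 14.87 and 14.89 on the WT arrays. The groups did not overlap, as for 2 of 34 member probes, both higher in Bgn_KO, and for 6.15% of all tested probes (3.2% higher in Bgn_KO), and the difference was 0.13 (SE 0.08, limma adjusted p = 0.592). They did overlap with each array scaled to its median, and the other probe, ILMN_2918479, differed by -0.01 with overlapping groups.

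Dnaja1, a DnaJ co-chaperone of Hsp70, had the largest difference of all members. Its tested probe had 6.03, 6.20, 5.69 and 5.86 on the Bgn_KO arrays and 6.86, 5.75, 6.88 and 6.30 on the WT arrays. WT replicate 2 lay among the Bgn_KO arrays and the other WT arrays above them. The difference was -0.50 (SE 0.24, limma adjusted p = 0.536), and -0.73 without WT replicate 2 (limma adjusted p = 0.190). Over the 16 alternatives that kept this probe, the difference ran from -0.73 to -0.17. The probe was dim, brighter than only 18.6% of all tested probes. The second probe of Dnaja1 was above background on 0 arrays.

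Small heat shock proteins and their partner varied without separating the genotypes. Cryab, the small heat shock protein alpha B crystallin that is made by oligodendrocytes and muscle, had 9.88, 10.65, 10.31 and 10.42 on the Bgn_KO arrays and 10.65, 10.84, 10.59 and 10.47 on the WT arrays. Bgn_KO replicate 1 was lowest and the groups overlapped (difference -0.32, SE 0.16, limma adjusted p = 0.551). Of 10 tested oligodendrocyte markers 0 passed the test and 9 had negative differences (median -0.42), with array means of 11.55 to 11.79 in Bgn_KO and 11.82 to 12.18 in WT. On Bgn_KO replicate 1, where Cryab was lowest, these markers averaged 11.73, within that range. On WT replicate 2, where Cryab was highest (10.84), they averaged 12.17. On WT replicate 4, where muscle markers averaged 12.93, Cryab had its lowest WT value (10.47). The part of either cell type in the value of Cryab was not tested. Hspb1 (Hsp27), which stabilises actin and unfolded proteins, had 7.27, 7.73, 7.24 and 7.53 on the Bgn_KO arrays and 7.40, 8.21, 7.44 and 8.33 on the WT arrays. WT replicates 2 and 4 were high. Meningeal fibroblast markers (over 7 of 10 markers, 8.41 to 9.93 in Bgn_KO and 8.70 to 10.36 in WT) were highest on WT replicate 2, and muscle markers on WT replicate 4. The next highest means of the fibroblast markers were on Bgn_KO replicate 4 (9.93) and WT replicate 3 (9.83), where Hspb1 was at 7.53 and 7.44. Hspb1 differed by -0.40 (SE 0.23, limma adjusted p = 0.595), and the part of those cells was not tested. Col1a1, Col1a2 and Col3a1, which define fibroblasts, were not above background often enough to be tested. Bag3, the co-chaperone that links Hsp70 to small heat shock proteins in selective autophagy, had 11.02, 10.54, 10.96 and 10.65 on the Bgn_KO arrays and 10.93, 11.15, 10.97 and 11.10 on the WT arrays. Bgn_KO replicates 2 and 4 were low and the other 2 within the WT range (difference -0.24, SE 0.13, limma adjusted p = 0.563). Its partner Hspb8 differed by -0.01.

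Hspa1a, the stress-inducible Hsp70 and a classical target of heat shock factor 1, had 7.75, 7.49, 7.50 and 7.31 on the Bgn_KO arrays and 8.0, 7.51, 7.23 and 7.25 on the WT arrays (difference 0.01, SE 0.18, 95% interval -0.39 to 0.41). The array labelled WT replicate 1 was highest and Bgn_KO replicate 1 next. Hspa1b is nearly identical in sequence to Hspa1a, and the Hspa1a probe may not tell them apart. Dnajb1, the DnaJ partner of Hspa1a, differed by 0.03 and Hsph1, which exchanges nucleotides on Hsp70, by 0.06, with intervals of -0.21 to 0.27 and -0.15 to 0.27. Hsp90aa1, the inducible cytosolic Hsp90, ranged from 7.54 to 7.90 on the Bgn_KO arrays and from 7.03 to 8.38 on the WT arrays, and differed by -0.16. Hspe1 had 10.15, 10.52, 10.48 and 9.98 on the Bgn_KO arrays and 10.90, 10.32, 10.34 and 10.34 on the WT arrays, with the array labelled WT replicate 1 standing alone (difference -0.19, SE 0.17, limma adjusted p = 0.756). Hspd1, which starts beside it, differed by -0.06 and by 0.01 with its second probe.

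The ATF4 group had 4 tested genes, 2 with positive and 2 with negative differences (median -0.01), and 0 passed the test. Chac1, an enzyme that degrades glutathione, had 10.38, 10.43, 10.32 and 10.34 on the Bgn_KO arrays and 10.44, 10.29, 10.48 and 10.62 on the WT arrays (difference -0.09, SE 0.09, limma adjusted p = 0.795). The WT arrays spanned the whole Bgn_KO range. Asns, which makes asparagine, had 3 tested probes. The brightest had 12.57, 12.55, 12.57 and 12.60 on the Bgn_KO arrays and 12.54, 12.51, 12.52 and 12.50 on the WT arrays. Its groups did not overlap, but the difference was 0.06 (SE 0.07, limma adjusted p = 0.845), the groups overlapped with median scaling, and its other probes had differences of -0.11 and -0.06. Ddit3 (CHOP), the transcription factor of stress-induced cell death, had 9.73, 9.80, 9.75 and 9.51 on the Bgn_KO arrays and 9.35, 9.74, 9.77 and 9.65 on the WT arrays. The array labelled WT replicate 1 was the lowest of all, opposite to the ER chaperones, and the differences of its 2 probes were 0.07 and 0.13 (limma adjusted p = 0.888 and 0.709). Atf4 itself had 6.72, 7.01, 6.50 and 6.69 on the Bgn_KO arrays and 6.88, 6.75, 6.34 and 7.23 on the WT arrays (difference -0.07, SE 0.19, limma adjusted p = 0.938). Since ATF4 is raised mainly by translation, its mRNA level is a limited readout.

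**Figure D2:**
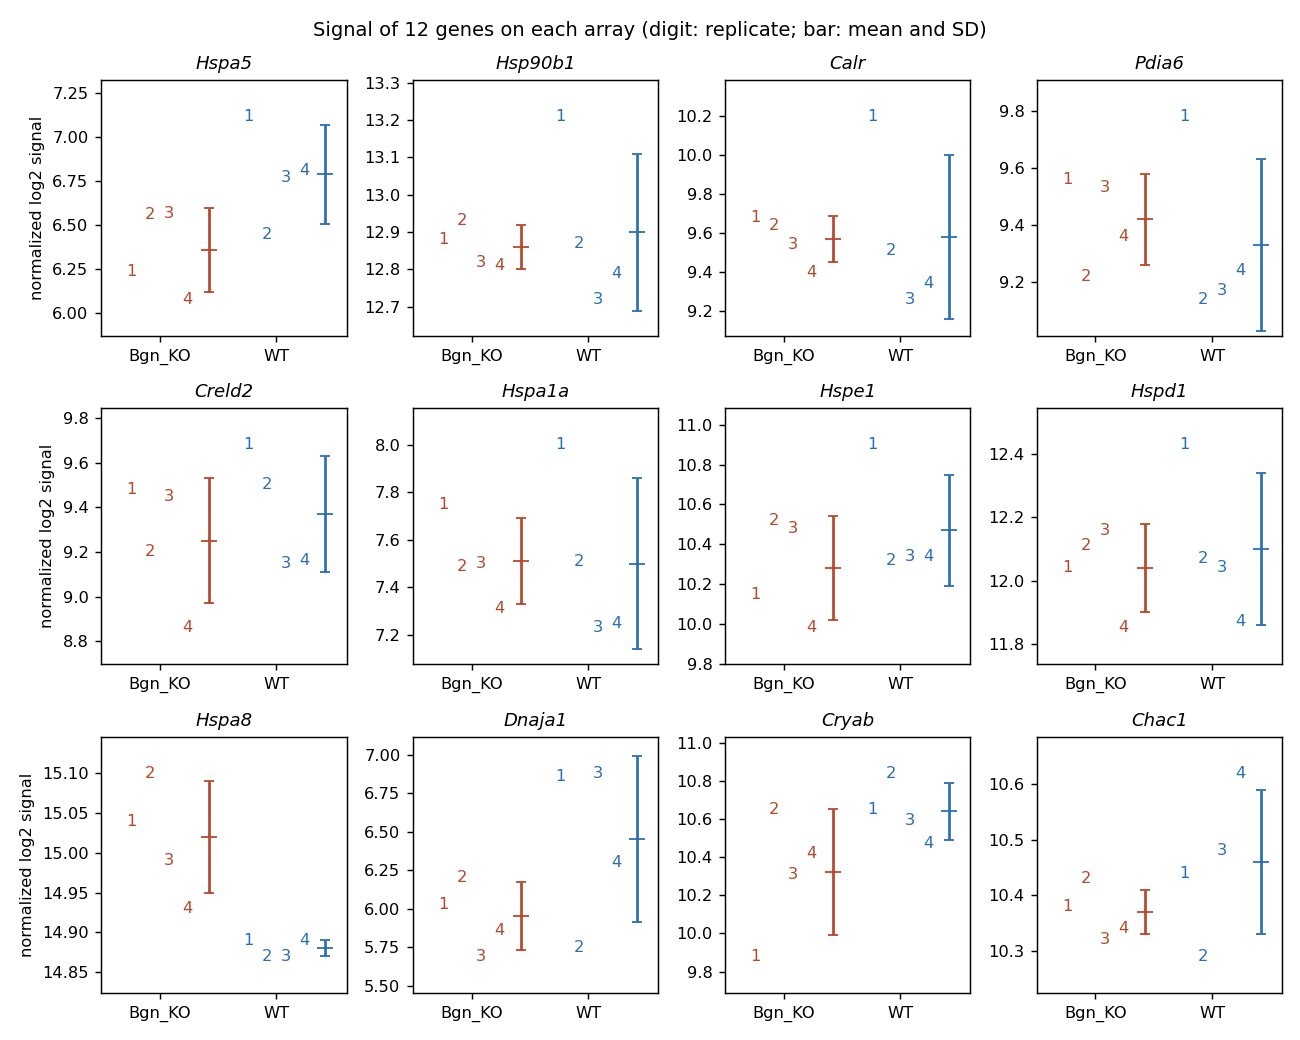
Normalized log2 signal of 12 members on each array, Bgn_KO left and WT right, where a digit is the replicate and the bar at its right the mean and SD of 4 arrays. WT replicate 1 is the highest array for the first 8 genes shown, and Hspa8 is the only panel whose groups do not overlap. Each axis has its own range.

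With the brightest tested probe standing for each gene, the array labelled WT replicate 1 held the highest value of 11 of 27 genes (40.7%), where it held that of 16.3% of all tested probes. Of the ER chaperones it was highest for 7 of 11 (Hspa5, Hsp90b1, Pdia3, Pdia6, Calr, Creld2 and Herpud1) and above the gene's mean over arrays for 10 of 11, with a mean deviation of 0.29 log2 units. Of the heat shock genes it was highest for 4 of 12 (Hspa1a, Hsp90aa1, Hspe1 and Hspd1), with a mean deviation of 0.23, and of the ATF4 genes for 0 of 4, although the Asns probe ILMN_3006123, which does not stand for the gene, was also highest there (10.83). All 5 tested ER genes whose windows hold the ER stress response element shown above were highest there, and 2 of the 6 without it. This rests on the brightest probes. The other Creld2 probe, ILMN_2757368, was highest on WT replicate 2 (9.59, against 9.56 on the array labelled WT replicate 1). The other Herpud1 probe, ILMN_2790246, was highest on Bgn_KO replicate 3 (12.07, against 11.96). With median scaling the array labelled WT replicate 1 was highest for 14 of 27 genes and for 22.1% of all tested probes. In the authors' processed values it was highest for 12 of 27 genes. In both, these included 5 of 5 genes that hold the element and 3 of the 6 without it (Pdia3, Herpud1 and Hyou1). Bgn_KO replicate 4 was at the other end: it was the lowest array for 6 of 27 genes (15.5% of all tested probes), 4 of them ER chaperones, with a mean deviation of -0.18 over that group. These genes were singled out after their values were seen, so no test is given. The array labelled WT replicate 1 had the highest median deposited signal (225, where Bgn_KO arrays had 180 to 213 and the rest of WT 195 to 213) and the lowest array weight in limma (0.556), and the part of either in this pattern was not tested.

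**Figure D3:**
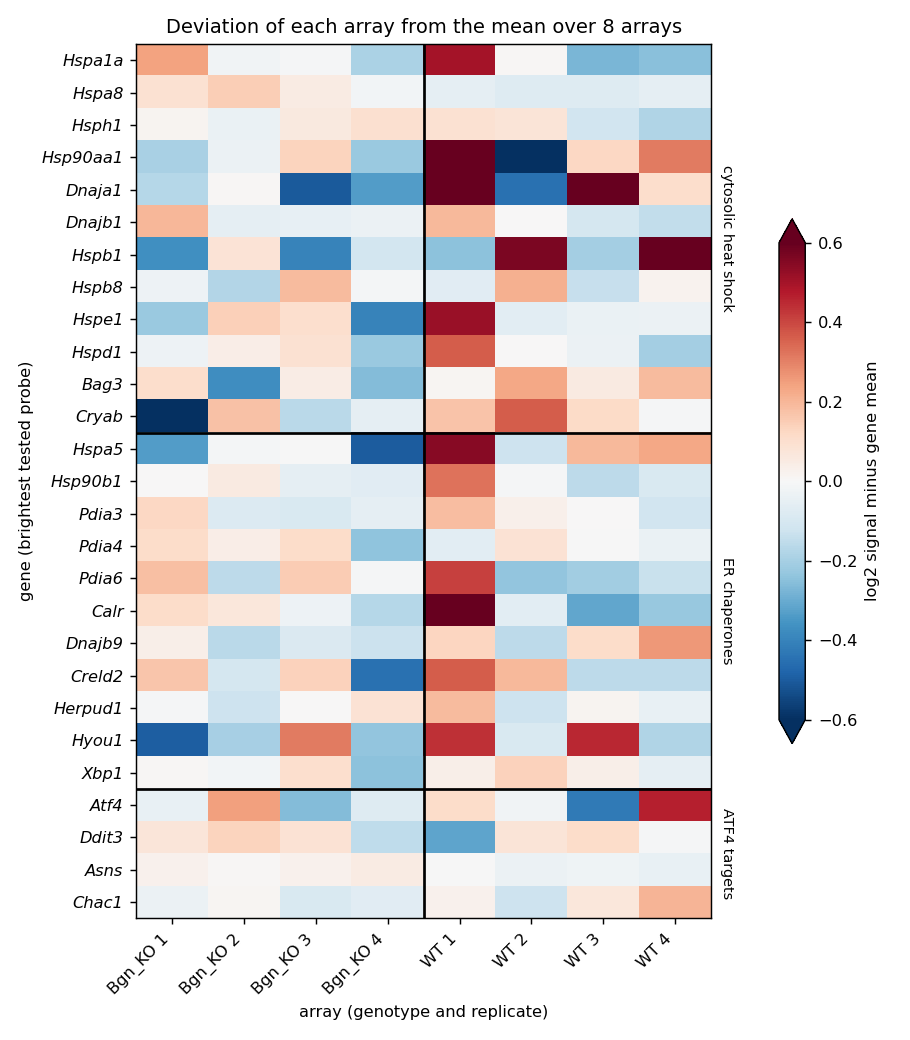
Deviation of each array from the gene's mean over 8 arrays, in log2 units, for the 27 tested genes (rows, by group) and the 8 arrays (columns, Bgn_KO left of the line and WT right). Red is above and blue below the mean, and values past 0.6 take the end colours. The column of WT replicate 1 is red for most heat shock and ER genes, and that of Bgn_KO replicate 4 mostly blue.

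**Figure D4:**
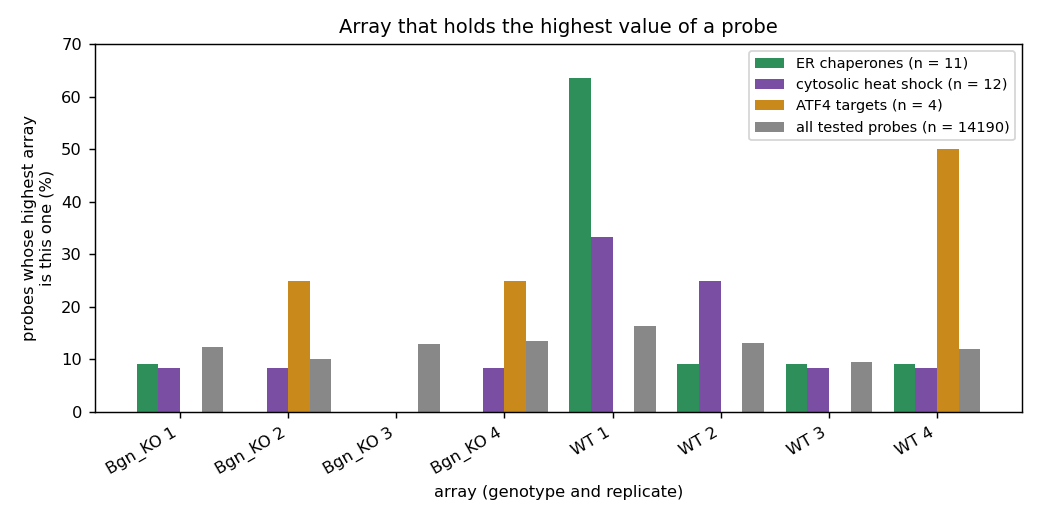
Percent of genes or probes whose highest value lies on each array, for the 3 groups (one probe per gene) and for all 14190 tested probes. WT replicate 1 holds 63.6% of the ER chaperones, 33.3% of the heat shock genes and 16.3% of all tested probes.

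Correlations between members were taken over the 8 arrays. Of the 55 pairs of ER genes 48 had a positive Pearson correlation (median r 0.29, and 0.14 without the array labelled WT replicate 1). The 66 heat shock pairs had a median r of 0.04 and all 351 pairs one of 0.10. Pairs share genes and arrays, and no such share was computed over all tested probes, so these counts show no trait particular to the group. Of all 351 pairs, 0 passed an exact two-sided permutation test after Benjamini-Hochberg adjustment and 31 had an unadjusted p under 0.05. Closest were Hsp90b1 with Calr (Pearson r 0.98, exact permutation p = 3.22e-04, adjusted 0.0566; Spearman rho 0.95, exact permutation p = 0.00114, adjusted 0.32) and Hspa1a with Calr (r 0.96, exact permutation p = 2.23e-04, adjusted 0.0566; rho 0.90, exact permutation p = 0.00456, adjusted 0.32). Without the 2 arrays farthest from the median of the first gene, r was 0.85 and 0.91, and without the array labelled WT replicate 1 it was 0.91 and 0.92. All are relations over the pooled genotypes, since 4 arrays are too few within each.

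Rbm3 and Cirbp, RNA-binding proteins whose mRNAs rise in the cold, ran against several members without passing the adjustment over 54 such pairs. Rbm3 had 10.52, 10.76, 10.44 and 11.53 on the Bgn_KO arrays and 10.41, 10.29, 11.77 and 11.44 on the WT arrays. It was thus high on Bgn_KO replicate 4 and WT replicates 3 and 4, the 3 arrays on which Hspa1a, Hsp90b1 and Calr were lowest. These 3 genes varied together (r 0.90 to 0.98 between them), so they are not separate observations. The correlation with Rbm3 was -0.85 for Creld2 (exact permutation p = 0.00672, adjusted 0.363; rho -0.93, exact permutation p = 0.00223, adjusted 0.121) and -0.77 for Hspa1a (exact permutation p = 0.0247, adjusted 0.38; rho -0.86, exact permutation p = 0.0107, adjusted 0.145). Without the 2 arrays farthest from the median of Rbm3 these were -0.82 and -0.65. With Cirbp, r was -0.62 for Creld2 and -0.74 for Hspa1a. Other members ran with Rbm3, among them Chac1 (r 0.56) and Dnajb9 (r 0.36). The 11 tested cold-inducible and handling-sensitive transcripts had 8 positive and 3 negative differences (median 0.28) and 0 passed the test over all probes. The immediate early genes Egr1 and Fos, which neurons switch on when active, had differences of 0.82 (limma adjusted p = 0.176) and 0.97 (limma adjusted p = 0.478), and their part in the levels of the members was not tested.

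Other genes of the 3 pathways, from lists of their known components, gave 1 call, where 0.507% of all 14190 tested probes passed. Of 44 tested heat shock proteins and co-chaperones 17 had positive and 27 negative differences (median -0.05), with 0 past the test. The Hsp70 exchange factor Hspa4 was nearest (5.82 ± 0.14 in Bgn_KO and 6.37 ± 0.18 in WT, SD, n = 4 each, difference -0.54, limma adjusted p = 0.111), then the Hsp90 co-chaperone Ptges3 (-0.28), the DnaJ protein Dnaja2 (-0.34) and the immunophilin Fkbp5 (-0.55). Of 38 tested ER folding and unfolded protein response genes 17 had positive and 21 negative differences (median -0.01), with 0 past the test. Those with the smallest p were the selenoprotein of ER-associated degradation Selk (-0.30, limma adjusted p = 0.240), the secreted factor Cdnf, a relative of Manf (-0.48), the ubiquitin ligase Syvn1 (0.21) and Creb3l2 (-0.18).

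Of 34 tested genes of the integrated stress response, 12 had positive and 22 negative differences (median -0.06). Sesn2, which encodes the stress-induced leucine sensor sestrin 2, rose and was the only gene to pass. Its probe ILMN_2948945 had 7.20, 6.78, 7.05 and 6.96 on the Bgn_KO arrays and 6.21, 6.42, 6.20 and 5.90 on the WT arrays. The groups did not overlap, as for 6.15% of all tested probes (3.2% higher in Bgn_KO). The difference was 0.81 (SE 0.13, limma adjusted p = 0.0353). The call was lost without Bgn_KO replicate 1, 3 or 4 and without WT replicate 1, 3 or 4 (limma adjusted p 0.0714 to 0.120), and the difference was 0.30 in the authors' processed values (limma adjusted p = 0.0668). Its other probe was not above background often enough to be tested. Sesn2 lies on chromosome 4, with 4 coding genes between it and Xkr8, which was called lower (-0.77, limma adjusted p = 0.00981). Other genes of amino acid supply with small p, the transporter chain Slc3a2 (-0.57) and the serine synthesis enzyme Psat1 (-0.39), and the growth inhibitor Ddit4 (0.45) did not pass (limma adjusted p 0.273 to 0.369).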

How the data were processed

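Hypothalamic total RNA of 4 Bgn_KO and 4 WT mice was measured on 8 Illumina beadchips. The authors deposited raw signal intensities and, for each probe and array, a detection p-value, per the file headers. A second deposited table holds their processed intensities. The submitters' processing notes name lumi 2.10.0 and R 2.15.0, without saying how each was applied. No data column belonged to another sample.

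Raw intensities were corrected by limma 3.58.1 (R 4.3.3) with the normexp model, taking the background from detection p-values and adding an offset of 16. The values were then taken to log2 and quantile normalized, in that order. The tests covered the 14190 probes above background (p-value under 0.05) on 4 or more arrays. limma's moderated linear model gave Bgn_KO minus WT, adjusted by Benjamini-Hochberg over all of them. The number of arrays limits the precision (median SE 0.13). Alternatives changed the offset, background correction, scaling, filter, array weights, replicate block and arrays used. The fit was tested on simulated data.

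The platform table named 23978 probes with 1 symbol, 0 with several and 1719 with none listed, and 23962 matched GRCm38.p6 RefSeq genes by Entrez ID. The array files name no build. The brightest tested probe stands for a gene in medians and gene counts. Values on each array are printed for members whose groups do not overlap and for at least 4 members of each group with the smallest p. The other members given that way, and Rbm3 with Cirbp, were chosen after their values were seen. Up to 4 genes with the smallest p are named per pathway list. Members and lists were chosen with earlier results of these data known.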

Additional observations from a re-analysis of the deposited data

Results flagged for a closer look

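Among 68 sets of 4 arrays (34 probes in 2 groups), 7 had an array whose gap to the nearest other was too large a share of the set's range by Dixon's 95% critical value. Chance gives about 1 such set in 20. Of these, 2 concerned the array labelled WT replicate 1 and both were its high values: Hspe1 at 10.90 (other WT arrays 10.32 to 10.34) and Pdia6 at 9.78 (9.14 to 9.24). Bgn_KO replicate 1 was high for Dnajb1 at 12.54 (other Bgn_KO arrays 12.28 to 12.31) and Pdia3 at 12.69 (12.47 to 12.51). Bgn_KO replicate 4 was low for the Hspa8 probe ILMN_2918479 at 13.77 (13.95 to 13.98). WT replicate 2 was low for the Asns probe ILMN_2636755 at 6.94 (other WT arrays 7.55 to 7.59), and WT replicate 3 was high for the Herpud1 probe ILMN_2790246 at 12.04 (11.95 to 11.96).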

How the results depend on the processing

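Under 17 alternatives 0 member probes passed 0.05, with the lowest limma adjusted p at 0.19, for Dnaja1 without WT replicate 2. Leaving out the array labelled WT replicate 1 changed the sign of 10 differences, none past the test. With median scaling, the brightest Asns probe turned to -0.00. The median of the heat shock group ran from -0.17 to -0.01 when single arrays were left out, that of the ER group from -0.10 to -0.01 and that of the ATF4 group from -0.04 to 0.06 (0.07 without both replicates 4). Over all probes the count of 72 became 116 with array weights, 47 for probes detected at 0.01 on all arrays, 26 with the replicate block, 42 without both replicates 4 and 43 to 76 without single arrays (43 without WT replicate 4 and 44 without WT replicate 3). Of the other co-chaperones 1, Hspa4, was called lower with array weights (-0.57, limma adjusted p = 0.0448). The call of Sesn2, the 1 gene of the integrated stress response, was lost (count 0) in the authors' processed values, without background correction, with the replicate block and without both replicates 4, and the count was 0 to 1 without single arrays. Same-numbered arrays of the 2 groups correlated by -0.19 to 0.10 in their deviations from the group means, and differently numbered ones by -0.18 to 0.19. The numbers thus showed no sign of pairing, which 4 arrays per group cannot exclude. The causes of these moves were not tested. Dim probes have only background as a limit: 3 genes could not be described.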
